A study of Mus musculus with 6 samples.

Results

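Complement, coagulation and fibrinolysis genes were examined in liver non-parenchymal cells of male mice that had received acetaminophen, with 3 libraries from SRA-/- mice set against 3 from wild type mice. The set was defined by name as 48 genes, and all 48 were found among the 53546 genes counted. SRA-/- mice lack scavenger receptor A, the macrophage receptor for modified lipoproteins and other polyanions that Msr1 encodes. Both groups had been injected into the peritoneum with acetaminophen at 400 mg/kg, and the cells were taken 6 h later. No untreated animals were analysed here, and both genotypes carry the drug in every value. The study asks how the receptor bears on inflammation of the liver after acetaminophen. The labels give neither the age of the mice nor their genetic background.

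Complement is a cascade of plasma proteases that marks surfaces for uptake, releases peptides that attract leukocytes and assembles a pore in membranes. Coagulation turns fibrinogen into fibrin through a second protease cascade, and fibrinolysis dissolves the fibrin again through plasmin. The liver supplies most of these plasma proteins from hepatocytes, whereas C1q and properdin come largely from macrophages and other myeloid cells, and factor VIII, von Willebrand factor and thrombomodulin from endothelium. The members were therefore grouped by their textbook source, with 25 made mainly by hepatocytes, 9 by macrophages or other myeloid cells and 5 by endothelium. A further 9, made by several cell types, were kept apart. Hepatocytes are not part of a non-parenchymal fraction, and the first class is thus known mainly from a cell type outside the labelled one.

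Library totals ran from 23757203 to 44003902 counts in SRA-/- mice and from 25061773 to 32520128 in wild type mice. Reads of a fragment were mostly counted once per mate, so a floor of 6 counts stands for 3 fragments. It corresponds to 0.136 to 0.253 CPM by the unscaled library totals. In all other values CPM is the count relative to the TMM-scaled library total. Msr1 itself was at 40.2, 33.6 and 42.0 CPM in SRA-/- replicates 1, 2 and 3 and at 38.6, 73.5 and 113.6 CPM in wild type replicates 1, 2 and 3. Its counts are summed over the whole gene, and the labels name no exon, so they are only a weak check of genotype. Wild type replicate 1 was level with the SRA-/- libraries. Markers of the labelled fraction were present in every library, with the Kupffer cell marker Clec4f at 172 to 358 CPM in SRA-/- libraries and 169 to 369 CPM in wild type libraries. Hepatocyte markers, a list of 22 genes that holds no member, summed to 69446 to 124233 CPM in SRA-/- libraries and to 39312 to 110348 CPM in wild type libraries. Markers of neutrophils, 11 genes, summed to 44.8 to 181 CPM in SRA-/- libraries and to 17.01 to 44.2 CPM in wild type libraries, just short of overlap. Pancreatic acinar genes, 21 in the list, summed to 5.03, 384 and 3.36 CPM in SRA-/- replicates 1, 2 and 3. In wild type replicates 1, 2 and 3 they summed to 599, 531 and 1034 CPM. SRA-/- replicate 2 was thus nearer to the wild type libraries than to the other SRA-/- libraries.

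None of the 48 members passed edgeR's quasi-likelihood test, in which the smallest adjusted p of a member was 0.9999. Of all 20541 genes tested, 0.0487% passed. No member had an unadjusted p under 0.05 in either direction, where 2.32% of all tested genes did with higher and 0.896% with lower values in SRA-/- libraries. No member separated the groups, whereas 3.97% of tested genes were higher and 3.33% lower in every SRA-/- library than in any wild type library. DESeq2 also called 0 members past adjustment, with 0 at an unadjusted p under 0.05. Limma-voom with quality weights called 0, with 2 at an unadjusted p under 0.05, Thbd with a lower and C5ar1 with a higher value in SRA-/- libraries. Of all tested genes, 11.7% had an unadjusted p under 0.05 by limma-voom and 3.51% by DESeq2.

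The members nevertheless varied strongly between animals. The highest library exceeded the lowest by 1.18-fold to 5.05-fold, with a median of 2.61-fold over the 48 members against 1.95-fold over the 20338 tested genes with reads in every library. Genes of a source class tended to share their extreme libraries. All 25 hepatocyte-made members were lowest in wild type replicate 3, and 21 of them were highest in SRA-/- replicate 3. Of the 9 macrophage or myeloid members, 8 were lowest in wild type replicate 1.

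**Figure D1:**
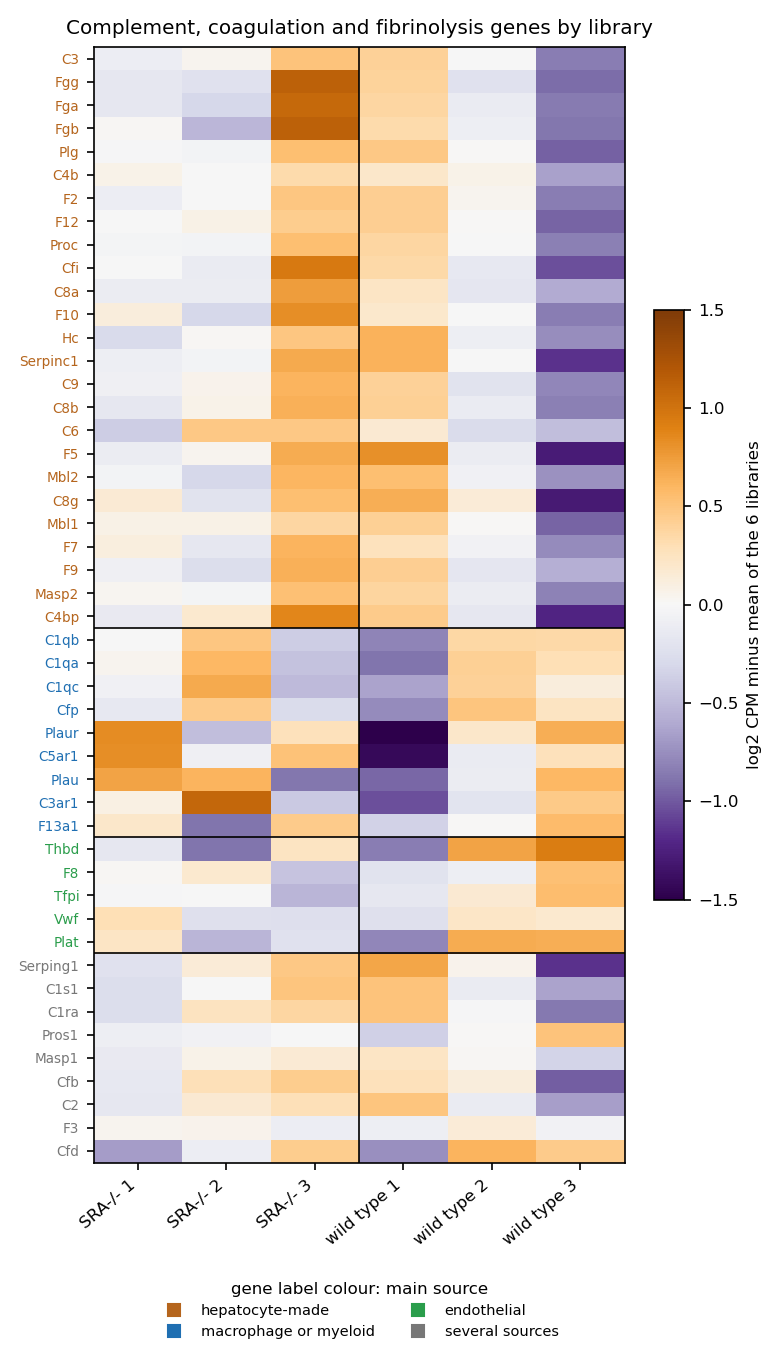
Each row is a gene and each column a library, and the colour gives log2 CPM minus the mean of that gene over the 6 libraries. Rows are ordered by source class and, within it, by mean level per length. The 25 hepatocyte-made genes share wild type replicate 3 as their lowest library, and 8 of the 9 macrophage or myeloid genes share wild type replicate 1.

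The fitted log2 fold changes, SRA-/- over wild type, had a median of 0.21 over the members and of -0.01 over all tested genes. They ran from -0.65 to 0.73, with standard errors from 0.20 to 0.48. The interval at 95% of every member contained 0. The intervals reached as far as -1.64, for Thbd, and 1.60, for C5ar1, so differences of those sizes are within what these libraries allow for these genes.

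**Figure D2:**
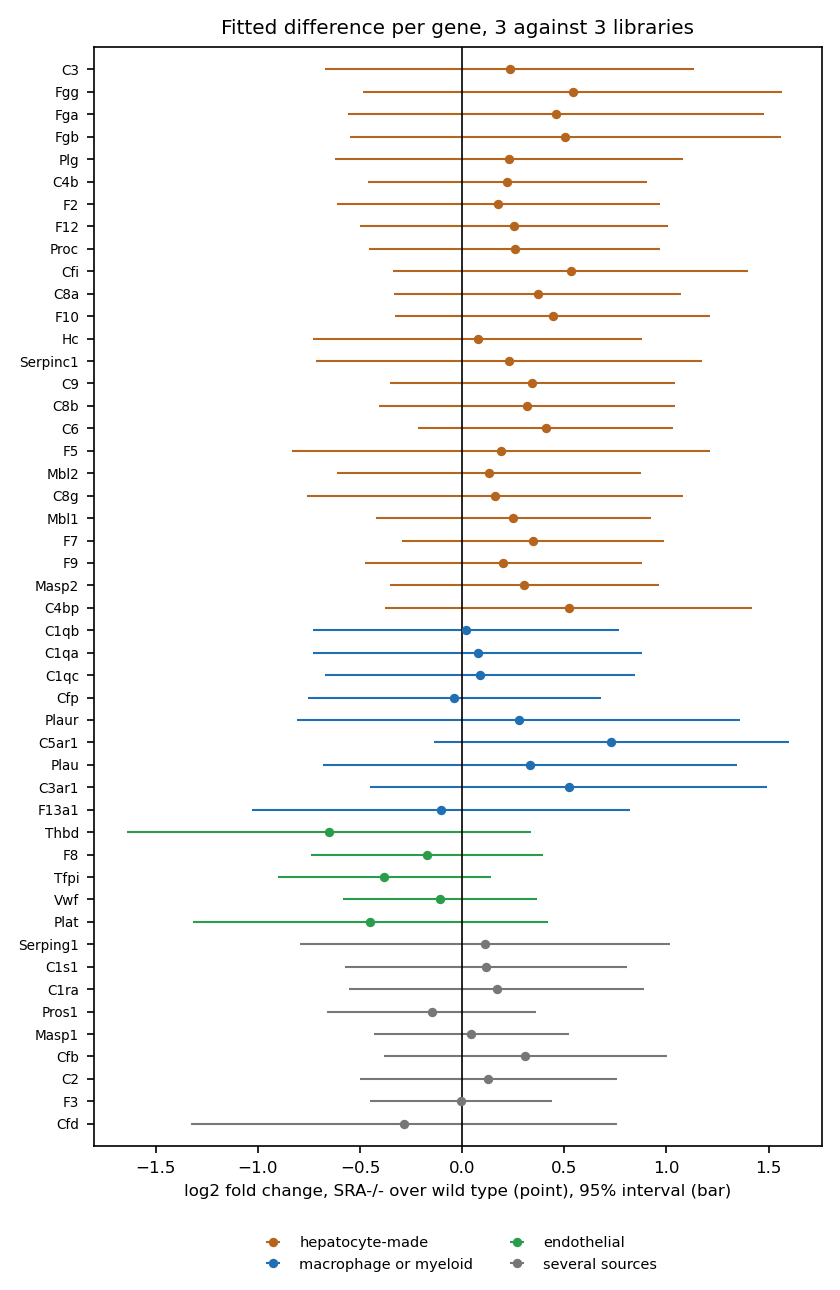
Points are fitted log2 fold changes, SRA-/- over wild type, for the 48 members, and bars are 95% intervals from edgeR's quasi-likelihood fit of 3 against 3 libraries. Every bar crosses 0, all 25 hepatocyte-made genes lie above 0 and all 5 endothelial genes below it.

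Hepatocyte-made factors supplied most of the reads of the set. Their summed level was 20114, 20008 and 35113 CPM in SRA-/- replicates 1, 2 and 3, against 28018, 20581 and 11767 CPM in wild type replicates 1, 2 and 3. The groups overlapped, with SRA-/- replicate 3 above and wild type replicate 3 below all other libraries. This class made up 90.1% to 94.0% of the members' CPM in SRA-/- libraries and 83.2% to 93.6% in wild type libraries. Per length the shares were 84.9% to 92.4% in SRA-/- libraries and 77.8% to 91.8% in wild type libraries. The sum of the 22 hepatocyte markers had the same ends, being highest in SRA-/- replicate 3 and lowest in wild type replicate 3. Albumin alone gave 68031 of the 124233 CPM of that sum in SRA-/- replicate 3. Taken singly, 16 of the markers peaked in SRA-/- replicate 3, while wild type replicate 1 held the peak of 6. The library with the minimum was wild type replicate 3 for 18 markers, SRA-/- replicate 2 for 3 and wild type replicate 2 for 1. In bulk RNA, fewer cells of a type and less RNA per cell cannot be told apart.

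The fitted log2 fold change was above 0 for all 25 hepatocyte-made members, and had a median of 0.26 and a range from 0.08 for Hc, the mouse gene of complement C5, to 0.54 for Fgg. Of the 22 hepatocyte markers, 19 were above 0 as well, with a median of 0.14. Among all 20541 tested genes 9924 were above 0. None of the 25 members passed the test. With SRA-/- replicate 3 and wild type replicate 3 both left out, an alternative chosen after seeing the data, 1 of 25 was above 0 and the median was -0.23. The median was 0.03 without SRA-/- replicate 3 alone, 0.0025 without wild type replicate 3 alone and 0.60 without wild type replicate 1. With the mean of the hepatocyte markers as a covariate it was 0.13, with 23 of 25 above 0. The share of hepatocyte RNA in these values was not tested in any other way.

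**Figure D3:**
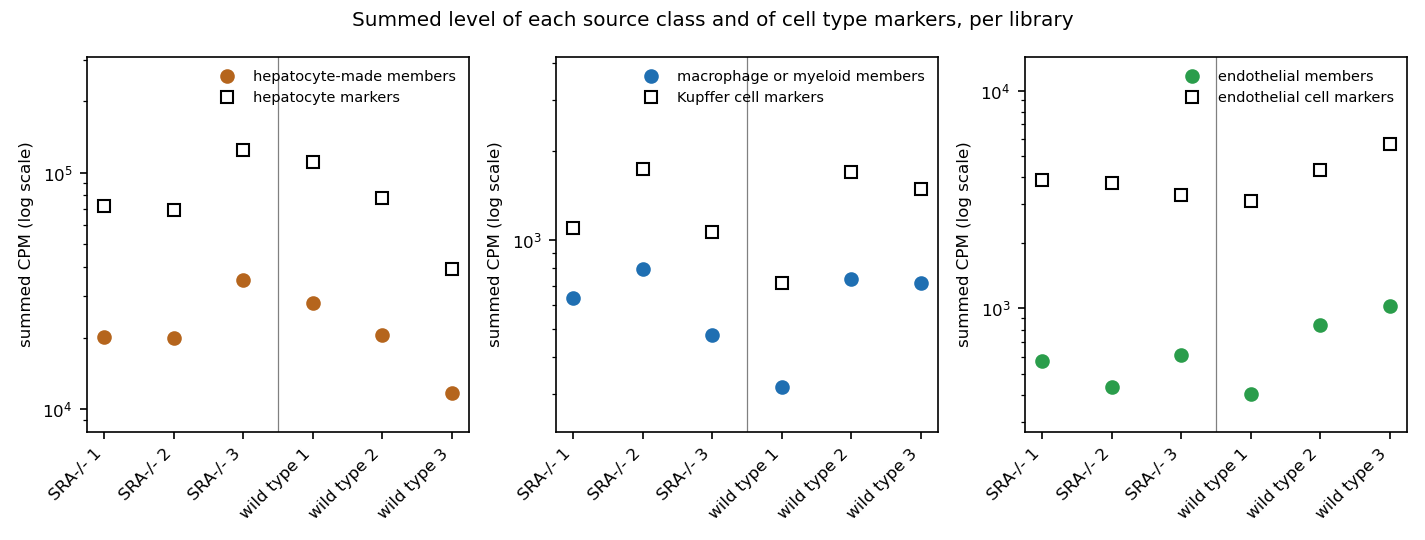
Filled circles are the summed CPM of the members of a source class and open squares the summed CPM of markers of that cell type that are not members, per library on a log axis. Hepatocyte-made members and hepatocyte markers are both highest in SRA-/- replicate 3, where the members sum to 35113 CPM, and lowest in wild type replicate 3, where they sum to 11767 CPM. Macrophage or myeloid members and Kupffer cell markers are both highest in SRA-/- replicate 2 and lowest in wild type replicate 1.

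C3, on which all 3 routes of complement activation converge, had the highest level per length of the set, at an average of 1326 RPKM, which is CPM per kilobase of exon, over the 6 libraries. It lies on chromosome 17 (57510970 to 57535136, mm39). C3 stood at 6079, 6713 and 9323 CPM in SRA-/- replicates 1, 2 and 3, against 8673, 6501 and 3644 CPM in wild type replicates 1, 2 and 3. Each SRA-/- value but that of replicate 3 lay inside the wild type range. Its log2 fold change was 0.23 ± 0.40 (SE), and it was -0.04 without wild type replicate 3.

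Of the classical pathway, C4b, whose product is cut to form the C3 convertase, averaged 1872 ± 243 CPM in SRA-/- libraries and 1607 ± 464 CPM in wild type libraries (SD, n = 3 each). C4bp, which encodes a chain of the plasma inhibitor C4b-binding protein, averaged 159 ± 59.4 CPM in SRA-/- libraries and 111 ± 58.1 CPM in wild type libraries. Cfi, the protease that inactivates C3b and C4b, averaged 326 ± 144 CPM in SRA-/- libraries and 226 ± 99.2 CPM in wild type libraries. Their fitted log2 fold changes were 0.22, 0.52 and 0.53, with unadjusted p of 0.486, 0.223 and 0.202 by edgeR.

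The terminal pathway builds the membrane pore from C5 to C9. Its 6 members here, Hc, C6, C8a, C8b, C8g and C9, were between 49.1 and 118 RPKM on average, and their log2 fold changes lay between 0.08 and 0.41. C6 had the highest of them. It was at 144, 260.2 and 261 CPM in SRA-/- replicates 1, 2 and 3, against 211, 154 and 135 CPM in wild type replicates 1, 2 and 3. SRA-/- replicates 2 and 3 thus lay above all wild type libraries, while replicate 1 lay among them, and the unadjusted p was 0.173 by edgeR. Leaving out SRA-/- replicate 1 gave a log2 fold change of 0.64 ± 0.27 in edgeR (unadjusted p = 0.0414, adjusted p = 0.9999).

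The lectin pathway starts when mannose-binding lectins on a sugar surface activate the serine proteases of the Masp genes. Mbl1 averaged 55.2 ± 6.69 CPM in SRA-/- libraries and 46.4 ± 20.0 CPM in wild type libraries, and Mbl2 averaged 58.0 ± 19.8 CPM in SRA-/- libraries and 52.9 ± 22.6 CPM in wild type libraries. Masp2 had a log2 fold change of 0.30 ± 0.29, but 54.9% of its exonic bases are shared with exons of Tardbp, where reads would not be assigned to a single gene.

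The 3 fibrinogen chains, which thrombin turns into fibrin, came next in level per length after C3. They form a cluster on chromosome 3 between 82915031 and 82957170 (mm39), with Fgb on the opposite strand to Fga and Fgg. Fga was at 2081, 1882 and 4905 CPM in SRA-/- replicates 1, 2 and 3, against 3003, 2142 and 1298 CPM in wild type replicates 1, 2 and 3. Fgb was at 2266, 1570.1 and 4916 CPM in SRA-/- libraries and at 2826, 2115 and 1227 CPM in wild type libraries, in the same replicate order. Fgg was at 1466, 1408 and 3588 CPM in SRA-/- libraries and at 2153, 1417 and 869 CPM in wild type libraries. In each case SRA-/- replicate 3 stood alone at the top, and the other SRA-/- libraries lay within the wild type range.

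Fibrinogen log2 fold changes were 0.46 ± 0.45 for Fga, 0.50 ± 0.47 for Fgb and 0.54 ± 0.46 for Fgg, with unadjusted p of 0.335, 0.309 and 0.264 by edgeR. Without SRA-/- replicate 3 they were -0.12, -0.10 and -0.04. The chain ratios varied less than the levels. Fga over Fgg, per length, was 0.987, 0.929 and 0.950 in SRA-/- libraries and 0.970, 1.051 and 1.04 in wild type libraries. Fga over Fgb was 1.16, 1.52 and 1.26 in SRA-/- libraries and 1.34, 1.28 and 1.34 in wild type libraries. Fgg over Fgb was 1.18, 1.63 and 1.33 in SRA-/- libraries and 1.39, 1.22 and 1.29 in wild type libraries, so that SRA-/- replicate 2 had the least Fgb relative to both other chains. Fgb over C3 varied more, at 0.503, 0.316 and 0.712 in SRA-/- libraries and 0.440, 0.439 and 0.454 in wild type libraries.

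The 250 bases before the annotated start of the fibrinogen genes are shown because the 3 genes form a cluster and share their highest and lowest libraries, with capitals for any match to motifs of liver factors. Motifs searched on both strands were the HNF1 site GTTAATNA, the HNF4 site CAAAGTCC and the C/EBP site TTGCNNAA, and PU.1, a myeloid factor, was searched as GAGGAAGT. Sequences are from RefSeq in build GRCm38.p6, which is not the build of the counts, and lie at chr3:83025903-83026152, plus strand, chr3:83049864-83050113, minus strand and chr3:83007474-83007723, plus strand.
Fga: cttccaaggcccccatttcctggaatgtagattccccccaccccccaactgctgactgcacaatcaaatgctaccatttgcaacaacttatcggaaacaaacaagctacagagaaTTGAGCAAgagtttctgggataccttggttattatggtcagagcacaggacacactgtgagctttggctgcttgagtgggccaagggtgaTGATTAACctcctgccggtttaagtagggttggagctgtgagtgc
Fgb: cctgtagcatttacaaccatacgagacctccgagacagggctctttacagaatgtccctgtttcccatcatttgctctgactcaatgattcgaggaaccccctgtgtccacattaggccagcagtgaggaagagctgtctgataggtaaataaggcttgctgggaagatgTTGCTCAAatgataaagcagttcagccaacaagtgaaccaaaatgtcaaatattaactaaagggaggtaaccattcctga
Fgg: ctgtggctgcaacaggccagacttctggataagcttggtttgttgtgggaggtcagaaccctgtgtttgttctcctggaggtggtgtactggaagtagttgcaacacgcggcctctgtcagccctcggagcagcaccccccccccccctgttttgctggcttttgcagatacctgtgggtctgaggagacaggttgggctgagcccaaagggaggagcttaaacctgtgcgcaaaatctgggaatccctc

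Fga held an HNF1 match at positions -45 to -38, counted back from the base before the start, and a C/EBP match at -135 to -128. Fgb held a C/EBP match at -80 to -73, and Fgg held none of these letters. RefSeq promoters were matched for 35 of 48 members, among them 21 of 25 hepatocyte-made ones. Of those 21, 4 (19.0%) held the HNF1 site, against 2.39% of 27025 promoters of the same length, and the 4 were Fga, Hc, C8a and C4bp. The C/EBP letters were in 5 of 21 (23.8%), against 9.55% of all promoters, and the HNF4 letters in 0 of 21, against 1.22%. Neither site was particular to this class. Of 7 matched macrophage or myeloid promoters, 1 (14.3%) held the HNF1 site and 1 (14.3%) the C/EBP letters. Of 5 matched promoters of members from several sources, 1 (20.0%) held the C/EBP letters and 0 the HNF1 site. A match is a description of letters and shows no binding.

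Among the other clotting factors, prothrombin (F2) was at 1180.2, 1260 and 1769 CPM in SRA-/- replicates 1, 2 and 3, against 1708, 1305 and 708 CPM in wild type replicates 1, 2 and 3. Factors V, VII, IX, X and XII, which carry the cascade to thrombin, had log2 fold changes between 0.19 for F5 and 0.44 for F10, with none past the test. F5 was the most variable hepatocyte-made member, 4.30-fold from wild type replicate 3 at 140.4 CPM to wild type replicate 1 at 604 CPM. Both extremes thus came from the same genotype. Plasminogen (Plg), the precursor of the fibrin-cutting protease, averaged 1576 ± 380 CPM in SRA-/- libraries and 1342 ± 613 CPM in wild type libraries (SD, n = 3 each).

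Of the anticoagulants made by hepatocytes, antithrombin (Serpinc1) averaged 781 ± 247 CPM in SRA-/- libraries and 667 ± 366 CPM in wild type libraries, and protein C (Proc) averaged 340.0 ± 84.4 CPM in SRA-/- libraries and 284 ± 109.8 CPM in wild type libraries. Their log2 fold changes were 0.23 ± 0.42 and 0.26 ± 0.32. In Serpinc1, 36.0% of the exonic bases are shared with other annotated genes. F7 and F10 lie next to each other on chromosome 8, at 13076034 to 13085809 and 13087308 to 13106676, and Plat at 23247743 to 23272860, all on the chromosome of Msr1, which is at 40034726 to 40095714 (mm39).

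Macrophage and myeloid members took 1.27% to 3.57% of the members' CPM in SRA-/- libraries and 1.054% to 5.05% in wild type libraries. Their summed level was 633, 794 and 476 CPM in SRA-/- replicates 1, 2 and 3, against 316, 735 and 715 CPM in wild type replicates 1, 2 and 3. Kupffer cell markers, 10 genes, summed to 1096, 1746 and 1066 CPM in SRA-/- libraries and to 716, 1695 and 1493 CPM in wild type libraries, and their part in these values was not tested. Wild type replicate 1 was lowest in both sums. With 7 of 9 members above 0, the class had a median log2 fold change of 0.09, which was -0.15, with 3 of 9 above 0, when wild type replicate 1 was left out. Leaving out SRA-/- replicate 3 gave 0.29 and leaving out wild type replicate 2 gave 0.30, with 8 of 9 above 0 in each. Without wild type replicate 3 it was 0.22, with 9 of 9 above 0, and without SRA-/- replicate 2 it had 4 of 9 above 0.

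C1q, the recognition molecule of the classical pathway, is built from 3 chains whose genes adjoin each other on chromosome 4 between 136607440 and 136626114 (mm39). C1qa was at 125, 184 and 89.6 CPM in SRA-/- replicates 1, 2 and 3, against 65.97, 162 and 149.9 CPM in wild type replicates 1, 2 and 3. C1qb was at 139, 198 and 108 CPM in SRA-/- libraries and at 80.2, 180.4 and 179 CPM in wild type libraries. C1qc was at 109.9, 184 and 81.6 CPM in SRA-/- libraries and at 74.2, 153 and 126 CPM in wild type libraries. In all 3 chains SRA-/- replicate 2 was highest and wild type replicate 1 lowest, and the groups overlapped.

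The log2 fold changes of C1qa, C1qb and C1qc were 0.08 ± 0.36, 0.02 ± 0.33 and 0.09 ± 0.34, and without wild type replicate 1 they were -0.22, -0.27 and -0.15. Their direction also turned with limma-voom, to -0.31, -0.30 and -0.35, and without SRA-/- replicate 2, to -0.23, -0.24 and -0.30, and that of C1qb to -0.03 when scaled by library totals alone. The ratio of C1qa over C1qb per length was 0.941, 0.9752 and 0.869 in SRA-/- libraries and 0.860, 0.942 and 0.877 in wild type libraries. C1qc over C1qb varied more, at 0.444, 0.525 and 0.426 in SRA-/- libraries and 0.521, 0.478 and 0.397 in wild type libraries. Both ratios overlapped between the groups. Set against Csf1r, the macrophage growth factor receptor, C1qb per length stood at 4.13, 3.42 and 3.62 in SRA-/- libraries and 3.25, 3.51 and 4.48 in wild type libraries. Cfp, properdin, which stabilises the alternative pathway convertase, averaged 95.7 ± 26.9 CPM in SRA-/- libraries and 98.3 ± 39.4 CPM in wild type libraries (SD, n = 3 each).

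The RefSeq sequences before 2 of the C1q genes are given for comparison with the fibrinogen genes, from GRCm38.p6 at chr4:136886201-136886450, minus strand, and chr4:136892915-136893164, minus strand. Capitals mark matches to the same motifs. C1qc held the PU.1 letters, on the reverse strand, at -195 to -188, and C1qb held none of the motifs, while 2.44% of all promoters hold the PU.1 letters.
C1qb: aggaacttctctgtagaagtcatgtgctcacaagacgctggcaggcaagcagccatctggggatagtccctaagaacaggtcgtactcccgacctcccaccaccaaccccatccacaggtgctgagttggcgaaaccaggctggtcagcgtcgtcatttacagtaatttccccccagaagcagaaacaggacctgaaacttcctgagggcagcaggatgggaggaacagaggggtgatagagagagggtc
C1qc: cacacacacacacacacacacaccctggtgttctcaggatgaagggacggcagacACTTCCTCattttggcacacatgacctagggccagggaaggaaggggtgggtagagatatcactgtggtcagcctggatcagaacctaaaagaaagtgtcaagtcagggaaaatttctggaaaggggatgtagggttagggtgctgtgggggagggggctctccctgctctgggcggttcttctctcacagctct

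Receptors for the complement peptides C3a and C5a had the largest log2 fold changes of the myeloid members, at 0.52 ± 0.43 for C3ar1 and 0.73 ± 0.39 for C5ar1. Both fall outside the rule for named members and were picked with their values in view. C5ar1 (chromosome 7, 15980668 to 15993465, mm39) was at 43.0, 23.1 and 35.0 CPM in SRA-/- replicates 1, 2 and 3, against 9.07, 22.4 and 29.4 CPM in wild type replicates 1, 2 and 3. SRA-/- replicates 1 and 3 lay above all wild type libraries, while SRA-/- replicate 2 lay within the wild type values. Its unadjusted p was 0.0900 by edgeR. It was 0.0210 by limma-voom, 0.0361 with the hepatocyte covariate and 0.0260 without wild type replicate 3, with adjusted p of 0.332, 0.934 and 0.9998.

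C5ar1 is also a neutrophil gene, and neutrophil markers were likewise highest in SRA-/- replicates 1 and 3 and lowest in wild type replicate 1. They summed to 143, 44.8 and 181 CPM in SRA-/- replicates 1, 2 and 3, against 17.01, 32.9 and 44.2 CPM in wild type replicates 1, 2 and 3. Of those 11 markers, 8 were tested, all 8 with log2 fold changes above 0 and 7 with an unadjusted p under 0.05 by edgeR. S100a9, a calprotectin chain, was at 33.6, 7.88 and 47.4 CPM in SRA-/- libraries and at 2.99, 6.53 and 9.03 CPM in wild type libraries. The defining marker Ly6g was at 0 to 0.68 CPM in SRA-/- libraries and at 0 to 0.09 CPM in wild type libraries. Monocyte markers, 7 genes, summed to 84.9, 104 and 73.3 CPM in SRA-/- libraries and to 46.8, 94.5 and 86.8 CPM in wild type libraries. This sum too was lowest in wild type replicate 1, but highest in SRA-/- replicate 2. Most of it was Itgal, at 62.9, 82.6 and 54.3 CPM in SRA-/- libraries and 33.6, 72.8 and 64.3 CPM in wild type libraries. Ccr2 did not overlap, at 2.63, 3.01 and 3.68 CPM in SRA-/- libraries and 1.31, 1.14 and 1.81 CPM in wild type libraries. Its log2 fold change was 1.12 ± 0.31 (unadjusted p = 0.0050, adjusted p = 0.841 by edgeR). Of the 7 markers, 5 had log2 fold changes above 0. The part of neutrophils or monocytes in the C5ar1 values was not tested.

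C3ar1 was at 10.7, 21.4 and 7.67 CPM in SRA-/- replicates 1, 2 and 3, against 4.95, 8.88 and 13.9 CPM in wild type replicates 1, 2 and 3. The groups overlapped, and its top library was SRA-/- replicate 2, which is the lowest SRA-/- library for C5ar1. Given the hepatocyte covariate, edgeR put it at 0.84 ± 0.25 (unadjusted p = 0.00762, adjusted p = 0.644). With SRA-/- replicate 3 and wild type replicate 3 left out it was 1.22 ± 0.40, and that of Plau 1.14 ± 0.31, with adjusted p of 0.971 and 0.888 by edgeR.

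Plau, urokinase, which activates plasminogen, and Plaur, its receptor, were both highest in SRA-/- replicate 1 and lowest in wild type replicate 1. Plau was at 16.5, 15.4 and 5.49 CPM in SRA-/- replicates 1, 2 and 3, against 5.22, 9.34 and 15.2 CPM in wild type replicates 1, 2 and 3. Plaur was at 102.5, 41.0 and 69.4 CPM in SRA-/- libraries and at 20.3, 66.1 and 89.5 CPM in wild type libraries. Plaur over Plau per length thus ranged from 2.40 to 11.4 in SRA-/- libraries and from 3.51 to 6.40 in wild type libraries. SRA-/- replicates 2 and 3 set that range. The log2 fold changes of Plau and Plaur were 0.33 ± 0.45 and 0.28 ± 0.48. F13a1, the fibrin-crosslinking subunit found in monocytes and platelets, was low, at 0.90 to 2.27 CPM in SRA-/- libraries and 1.31 to 2.46 CPM in wild type libraries. Platelet and megakaryocyte markers summed to 125 to 175 CPM in SRA-/- libraries and to 125 to 244 CPM in wild type libraries.

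Endothelial members, unlike the hepatocyte-made ones, all had log2 fold changes below 0, with a median of -0.38 over 5 genes and no call. Their summed level was 575, 436 and 611 CPM in SRA-/- replicates 1, 2 and 3, against 403, 842 and 1022 CPM in wild type replicates 1, 2 and 3. Wild type replicates 2 and 3 were above all SRA-/- libraries, and wild type replicate 1 was below them. Thbd was the largest part of the sum in every library. It gave 334, 201 and 438 CPM in SRA-/- libraries and 209, 610.1 and 711 CPM in wild type libraries. Plat had the order of the sum and Tfpi had it in part, while F8 and Vwf did not. Like the members, the 12 endothelial markers had 0 of 12 above 0, with a median of -0.24. Lyve1 alone among these markers did not overlap between the groups. It was at 134.6, 89.6 and 125.4 CPM in SRA-/- libraries and at 159.5, 249.8 and 335.6 CPM in wild type libraries. Its log2 fold change was -1.09 ± 0.29 (unadjusted p = 0.0040, adjusted p = 0.801 by edgeR). The 12 markers summed to 3314 to 3899 CPM in SRA-/- libraries and to 3097 to 5675 CPM in wild type libraries, and their part in the result was not tested. The median was -0.18 without wild type replicate 3, with 1 of 5 above 0, and -0.23 without SRA-/- replicate 3, with 0 of 5 above 0. With SRA-/- replicate 3 and wild type replicate 3 both left out, 2 of the 5 members were above 0 and the median was -0.03.

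Thbd, thrombomodulin, the endothelial receptor that turns thrombin towards activating protein C, had the lowest log2 fold change of the 48, at -0.65 ± 0.44. It lies on chromosome 2 (148246386 to 148250108, mm39). Thbd was at 334, 201 and 438 CPM in SRA-/- replicates 1, 2 and 3, against 209, 610.1 and 711 CPM in wild type replicates 1, 2 and 3. Wild type replicate 1 was close to the lowest SRA-/- library, and the other wild type libraries were above all SRA-/- libraries. The unadjusted p was 0.171 by edgeR and 0.0197 by limma-voom, and adjustment gave 0.9999 and 0.324. Leaving out wild type replicate 1 gave -1.02 ± 0.30 in edgeR (unadjusted p = 0.00668, adjusted p = 0.481).

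F8, the cofactor of factor IX that liver sinusoidal endothelium makes, was at 144, 161 and 105 CPM in SRA-/- libraries and at 123, 133 and 206 CPM in wild type libraries, again in replicate order. Vwf, the carrier of factor VIII, was at 69.8, 48.4 and 48.2 CPM in SRA-/- libraries and at 48.4, 66.4 and 64.8 CPM in wild type libraries. Tfpi, the inhibitor of the tissue factor pathway, was at 21.7, 21.9 and 15.3 CPM in SRA-/- libraries and at 19.7, 24.8 and 32.3 CPM in wild type libraries. In all 3 genes the groups overlapped, with log2 fold changes of -0.17 ± 0.25, -0.11 ± 0.21 and -0.38 ± 0.23. F8 turned to 0.09 without wild type replicate 3. Plat, tissue plasminogen activator, was at 3.21 to 5.44 CPM in SRA-/- libraries and 2.68 to 7.33 CPM in wild type libraries. Tfpi and Plat were among the 8 members with an unadjusted p under 0.05 by edgeR without wild type replicate 1, alongside Thbd, C6, C8b, C9, C4bp and Masp2, with 0 of them past adjustment. In that fit 7.01% of all tested genes had an unadjusted p under 0.05, against 3.22% with all 6 libraries.

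Of the 9 members made by several cell types, those of the C1 complex and its inhibitor were highest in wild type replicate 1 and lowest in wild type replicate 3. Serping1, the inhibitor of C1r, C1s and the contact proteases, was at 215, 276 and 348 CPM in SRA-/- replicates 1, 2 and 3, against 405, 260.2 and 112 CPM in wild type replicates 1, 2 and 3. C1s1, the protease that cuts C4 and C2, was at 132, 156 and 221 CPM in SRA-/- libraries and at 224, 145 and 101 CPM in wild type libraries. The wild type libraries spanned all SRA-/- values in both genes, and the log2 fold changes were 0.11 ± 0.40 and 0.12 ± 0.31. C1ra, its partner protease, had 0.17 ± 0.32. C1ra and C1s1 have near-identical neighbours, C1rb and C1s2, and C1s1 shares 18.4% of its exonic bases with other genes, so their counts are uncertain.

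Tissue factor was the steadiest member. F3, its gene, the trigger of coagulation, had the smallest spread of the set, at 6.76 to 7.48 CPM in SRA-/- libraries and 6.84 to 8.01 CPM in wild type libraries. Its log2 fold change was -0.005, with a 95% interval of -0.45 to 0.44. Pros1, protein S, the cofactor of activated protein C, was at 97.8 to 103 CPM in SRA-/- libraries and 81.0 to 148 CPM in wild type libraries. Masp1, the lectin pathway protease that stellate cells also make, was at 220.4 to 271 CPM in SRA-/- libraries and 193 to 283 CPM in wild type libraries. The SRA-/- values of Pros1 and Masp1 lay inside their wild type ranges. Cfb and C2, the proteases of the C3 convertases, had log2 fold changes of 0.31 ± 0.31 and 0.13 ± 0.28. The annotation gives 79.5% of the exonic bases of Cfb and 46.9% of those of C2 to a further gene as well, Gm20547 or, for C2, also Zbtb12, and Gm20547 had 0 counts in every library. Reads in shared bases were not counted for either gene. Cfd, adipsin, the protease that cuts factor B, was low, at 0.65 to 1.41 CPM in SRA-/- libraries and 0.62 to 1.60 CPM in wild type libraries.

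Beyond the 48, a further 67 genes of these pathways were examined, of which 65 were tested and 0 passed edgeR's test, with 40 of 65 above 0 and a median log2 fold change of 0.11. By unadjusted p under 0.05, 3 were higher in SRA-/- libraries and 0 lower, and 5 did not overlap between the groups, all higher in SRA-/- libraries. Among all tested genes 2.32% were higher by that p and 3.97% were higher without overlap. Itgax, the alpha chain of complement receptor 4, a phagocyte and dendritic cell integrin, was at 7.16, 6.08 and 5.76 CPM in SRA-/- replicates 1, 2 and 3, against 2.82, 2.28 and 2.96 CPM in wild type replicates 1, 2 and 3. Its groups were well apart, with a log2 fold change of 1.24 ± 0.24 and, in edgeR, an adjusted p of 0.438. DESeq2 and limma-voom called it, with adjusted p of 0.00234 and 0.0138.

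Itgb2, the beta chain that pairs with it, was at 46.9, 56.4 and 48.3 CPM in SRA-/- replicates 1, 2 and 3, against 23.0, 39.5 and 34.9 CPM in wild type replicates 1, 2 and 3, with a log2 fold change of 0.64 ± 0.22. The groups did not overlap, and adjustment gave 0.9999 in edgeR, 0.748 in DESeq2 and 0.396 in limma-voom. Itgam, the alpha chain of complement receptor 3, was at 4.004, 1.90 and 5.04 CPM in SRA-/- replicates 1, 2 and 3, against 0.82, 2.09 and 2.61 CPM in wild type replicates 1, 2 and 3. Neutrophil markers summed to 44.8 to 181 CPM in SRA-/- libraries and 17.01 to 44.2 CPM in wild type libraries. Like them, Itgam was highest in SRA-/- replicates 3 and 1 and lowest in wild type replicate 1. Itgb2 was instead highest in SRA-/- replicate 2, the SRA-/- library lowest in neutrophil markers, and Itgax was lowest in wild type replicate 2. The part of neutrophils in the integrin values was not tested. The log2 fold change of Itgam was 0.98 ± 0.47 with overlap between the groups, and 68.7% of its exonic bases are shared with Gm49368. F2r, the main thrombin receptor, was at 68.4 to 76.0 CPM in SRA-/- libraries and 71.2 to 117.6 CPM in wild type libraries, with -0.41 ± 0.21. F2rl1, another protease-activated receptor, was at 0.91 to 1.303 CPM in SRA-/- libraries and 0.46 to 0.89 CPM in wild type libraries. Gas6, a vitamin K-dependent ligand related to protein S, was at 52.0 to 63.3 CPM in SRA-/- libraries and 42.3 to 50.6 CPM in wild type libraries, with 0.29 ± 0.16. Its groups did not overlap, and it lies on chromosome 8 (13515374 to 13544490, mm39), as F7, F10, Plat and Msr1 do. Gas6 falls outside the rule for these genes. Serpinb2, with a slightly smaller unadjusted p by edgeR (0.1128 against 0.1135), went the other way, at -1.49 ± 0.85. It was low, at 0.10 to 0.35 CPM in SRA-/- libraries and 0.14 to 1.52 CPM in wild type libraries.

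C4a, which in mice encodes the sex-limited protein and is a near-identical neighbour of C4b on chromosome 17 (35028069 to 35042440, mm39), was at 60.5, 55.6 and 60.5 CPM in SRA-/- replicates 1, 2 and 3, against 38.6, 31.1 and 38.5 CPM in wild type replicates 1, 2 and 3. The groups did not overlap. The log2 fold change was 0.71 ± 0.16, and its adjusted p was 0.675 in edgeR, 0.0660 in DESeq2 and 0.0297 in limma-voom. C4b itself was at 1776, 1692 and 2149 CPM in SRA-/- libraries and at 1959, 1779 and 1082 CPM in wild type libraries, with overlap. How reads that align to both copies were treated decides part of either count, so both are uncertain.

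**Figure D4:**
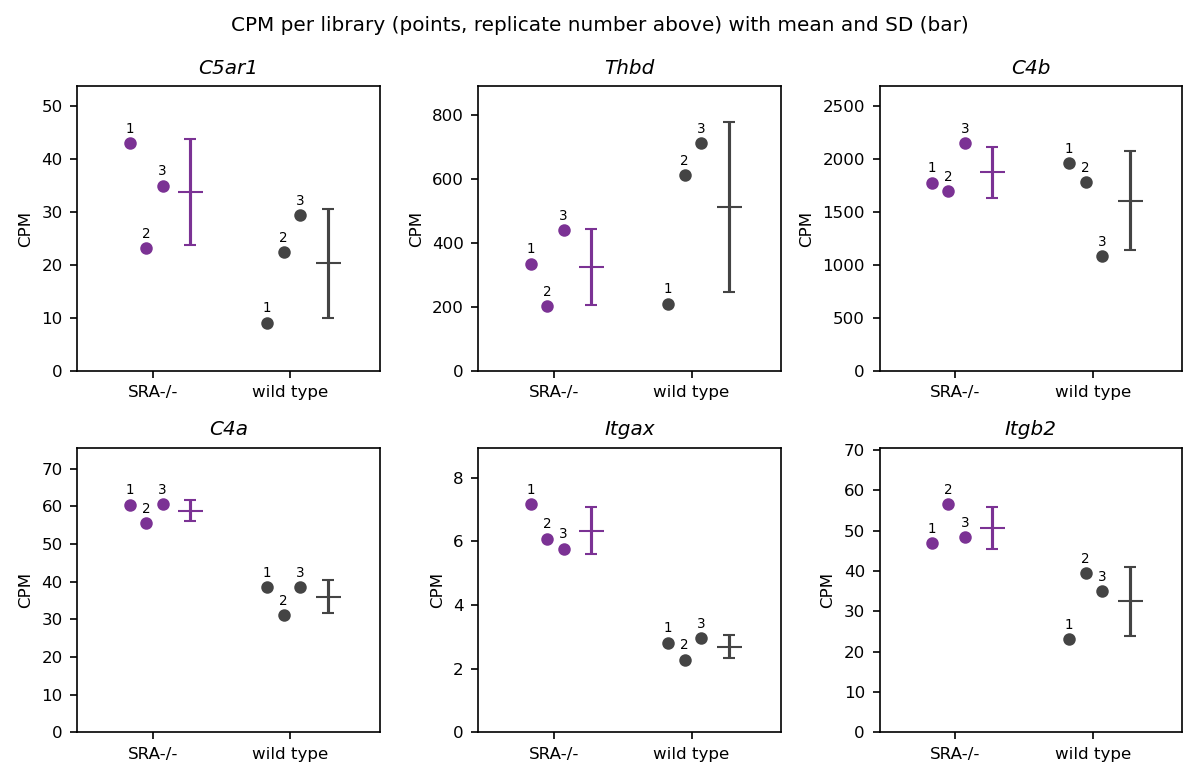
Points are CPM of each library, with the replicate number above, and bars give the mean and SD of 3 libraries for SRA-/- on the left and wild type on the right of each panel. C4a, Itgax and Itgb2 do not overlap between the groups, while C5ar1, Thbd and C4b do.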

How the data were processed

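RNA of liver non-parenchymal cells was sequenced from 3 SRA-/- and 3 wild type mice; groups and replicate numbers come from the titles. The authors deposited raw counts per gene name, made with featureCounts 2.0.2 over exons of GENCODE vM26, unstranded, per the file headers, so antisense reads cannot be told apart. Per the submitters' processing notes, STAR and build mm39 were used. Of counts from 1 to 4, 68.5% to 71.9% were even, as when both mates of a fragment are counted, so floors are in counts of mates and cover counting error only. The 95% intervals come from the fit and include the spread between libraries. The labels name no batch.

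Counts were fitted on genotype in R 4.3.3 with edgeR 4.0.16 (filterByExpr, TMM, robust quasi-likelihood), and p-values were adjusted by Benjamini-Hochberg over 20541 genes, threshold 0.05. CPM use TMM-scaled library sizes, and RPKM divides them by exon length. Exact permutation of 3 against 3 libraries cannot give a p below 0.1. The titles call the replicates biological. DESeq2 1.42.0 and limma 3.58.1 served as alternatives. The fits were tested on simulated data.

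Members and lists were chosen with earlier results of these data known. The rule gave library values for members with an unadjusted p under 0.05 or groups without overlap (there were 0), the 2 with the highest mean RPKM per source class, C1q and fibrinogen chains, and F8, Vwf, Thbd and Tfpi; of the other pathway genes, for the 6 with the smallest p. Values of further members, and of Gas6 and Serpinb2 among the other pathway genes, were added after they were seen.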

Additional observations from a re-analysis of the deposited data

How the results depend on the processing

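No member passed the adjusted threshold under any of the 15 alternatives, which were edgeR with other scalings, filters, a covariate or a block, DESeq2, limma-voom, each library left out in turn and, chosen after seeing the data, SRA-/- replicate 3 and wild type replicate 3 left out together. The count of all genes past the test, 10, was 68 with DESeq2, 99 with limma-voom, 32 with no filter on low counts, 5 with the replicate block and 3 to 40 with 1 library left out. Other pathway genes past the test numbered 1 with DESeq2 and 2 with limma-voom. Members with an unadjusted p under 0.05, 0 in either direction, numbered 1 higher and 1 lower with limma-voom, 3 higher with the hepatocyte covariate, 2 higher with both replicates 3 left out, and 0 to 5 higher and 0 to 3 lower with 1 library left out. The share of all tested genes under that p, 3.22%, was 11.7% with limma-voom, 5.02% with the covariate, 4.68% with both replicates 3 left out and 2.02% to 7.01% with 1 library left out. The median log2 fold change of the members from several sources, 0.11, ran from -0.11 to 0.47 with 1 library left out. With both replicates 3 left out it was -0.21, that of hepatocyte-made members -0.23 and that of endothelial members -0.027. The cause was not tested. Of 195 values of the 13 members named by rule, 28 had another sign than the main value, 0 of them called. Deviations from the group means correlated across genes at -0.29, -0.14 and -0.13 between the libraries of replicate numbers 1, 2 and 3. Libraries of unlike numbers were not compared, so these values cannot decide whether replicate numbers pair the samples. At this depth low counts limit Cfd and F13a1.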

Other observations

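Hepatocyte-made members were also set against albumin (Alb), a major hepatocyte transcript, within each library. Alb was at 34342, 31262 and 68031 CPM in SRA-/- replicates 1, 2 and 3, against 55804, 38175 and 16227 CPM in wild type replicates 1, 2 and 3. C3 over Alb per length was 0.0806, 0.0978 and 0.0624 in SRA-/- libraries and 0.0708, 0.0775 and 0.102 in wild type libraries. Fgb over Alb was ordered otherwise, at 0.0406, 0.0309 and 0.0444 in SRA-/- libraries and 0.0311, 0.0341 and 0.0465 in wild type libraries. C4b over Alb ran between 0.0130 and 0.0223 in SRA-/- libraries and between 0.0144 and 0.0274 in wild type libraries. Plg over Alb ran between 0.0187 and 0.0272 in SRA-/- libraries and between 0.0218 and 0.0275 in wild type libraries, and C9 over Alb between 0.00290 and 0.00426 in SRA-/- libraries and between 0.00293 and 0.00460 in wild type libraries. Serpinc1 over Alb was at 0.00501, 0.00569 and 0.00430 in SRA-/- libraries and 0.00508, 0.00478 and 0.00508 in wild type libraries. The ratios of C3, C4b, Plg, C9 and Serpinc1 were lowest in SRA-/- replicate 3, where Alb was highest. Fgb over Alb was 0.0444 there and was lowest in SRA-/- replicate 2. All these ratios share Alb as denominator and so are not independent of its level. They were looked at after the values were seen, and no test was made of them.

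C4a over C4b per length was 0.0312, 0.0301 and 0.0258 in SRA-/- libraries and 0.0181, 0.0160 and 0.0327 in wild type libraries. Wild type replicate 3, the library with the lowest sum of hepatocyte markers, was thus above all SRA-/- libraries in this ratio although below them in C4a itself.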
